A study of Mus musculus with 12 samples.

Results

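The cathepsins described here are 10 protease genes, Ctsa, Ctsb, Ctsc, Ctsd, Ctse, Ctsh, Ctsl, Ctso, Ctss and Ctsz, followed across leukaemia cells and normal thymocytes of mice with and without MBD2, a protein that binds methylated CpG sites. They were taken as every probe set that the array annotation assigns to 1 of these genes and to no other, which gave 23 probe sets for 10 of the 18193 genes on the array. The genes were chosen on earlier results of these same 12 arrays, their levels in the 4 groups included, so the calls below describe them and are no independent evidence about cathepsins as a family. The 4 groups of 3 arrays each were compared. The first held GFP+ bone marrow leukaemia cells (T-ALL, T-cell acute lymphoblastic leukaemia driven by Notch1) sorted from recipient mice of MBD2-/- cells, and the second the same kind of cells from recipients of MBD2+/+ cells. Leukaemia cells were collected once GFP+ cells exceeded 50% of white blood cells in the blood. The other groups were CD4+CD8+ double positive (DP) thymocytes sorted from untransplanted MBD2-/- and MBD2+/+ mice. The labels give no sex, age or litter and do not say whether the 3 leukaemias of a genotype arose independently, so each p-value measures the spread between these samples only.

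Most cathepsins are made as inactive precursors, tagged with mannose-6-phosphate and delivered to endosomes and lysosomes, where the acid interior removes the propeptide. They fall into cysteine proteases of the papain family (B, C, H, L, O, S, Z), aspartic proteases (D, E) and a serine carboxypeptidase (A). In the thymus, cathepsins L and S are known for trimming the invariant chain of MHC class II in cortical epithelium and in bone-marrow-derived antigen-presenting cells, and cathepsin C is known for activating granzymes and other granule proteases in killer lymphocytes and myeloid cells.

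Because MBD2 reads methylated CpG sites, the promoters of 3 genes whose levels differed between the leukaemia genotypes are printed with each CpG in capitals (5′ to 3′, RefSeq, GRCm38.p6, 250 bases before to 50 after the annotated start). Ctse also differed by its representative probe set, but no window was on hand for it. The Ctsl window is chr13:64370471-64370770 on the minus strand, that of Ctsd is chr7:142387778-142388077 on the minus strand, and that of Ctso is chr3:81932351-81932650 on the plus strand.
Ctsl: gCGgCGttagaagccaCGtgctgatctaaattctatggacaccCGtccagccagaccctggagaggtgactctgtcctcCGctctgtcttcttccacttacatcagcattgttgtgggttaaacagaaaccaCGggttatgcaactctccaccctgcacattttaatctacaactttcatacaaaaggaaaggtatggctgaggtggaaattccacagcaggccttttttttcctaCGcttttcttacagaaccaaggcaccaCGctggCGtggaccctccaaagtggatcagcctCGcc
Ctsd: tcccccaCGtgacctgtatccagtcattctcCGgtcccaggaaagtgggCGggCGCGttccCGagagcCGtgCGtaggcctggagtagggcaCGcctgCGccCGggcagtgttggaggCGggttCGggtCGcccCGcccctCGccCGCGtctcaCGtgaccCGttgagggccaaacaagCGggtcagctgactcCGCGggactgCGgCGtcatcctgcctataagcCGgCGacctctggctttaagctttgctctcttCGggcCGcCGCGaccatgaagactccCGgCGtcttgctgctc
Ctso: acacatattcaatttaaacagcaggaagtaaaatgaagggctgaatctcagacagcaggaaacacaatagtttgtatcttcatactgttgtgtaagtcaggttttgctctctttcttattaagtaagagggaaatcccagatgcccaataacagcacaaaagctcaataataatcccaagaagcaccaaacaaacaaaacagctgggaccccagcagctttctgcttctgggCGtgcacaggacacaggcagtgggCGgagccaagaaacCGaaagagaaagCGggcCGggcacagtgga
The Ctsd window holds 33 CpG sites, more than 91.4% of the 32851 promoter windows of the same length, whose median is 7. Ctsl has 10 and Ctso 5. The palindrome CACGTG, which reads the same on both strands, occurs 2 times in the Ctsd window, starting 245 and 98 bases before the start site, and 1 time in the Ctsl window, starting 236 bases before it. It is not in the Ctso window, and 7.15% of all windows hold it at least 1 time. Windows were also on hand for Ctsa, Ctsc, Ctss and Ctsz, and not for Ctsb, Ctse and Ctsh. For Ctsa, not called between the leukaemia genotypes, 1 window holds CACGTG 2 times, starting 12 bases before and 5 after the start site. The other Ctsa window and those of Ctsc, Ctss and Ctsz do not hold it. Methylation was not measured on these arrays.

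The arrays checked the deletion first. Mbd2 had intensities of 41.4, 55.7 and 66.0 in the Mbd2-deleted leukaemias, against 957, 742 and 762 in the wild-type leukaemias, and averaged 72.1 ± 10.7 in deleted and 1136 ± 206 in wild-type thymocytes (mean ± SD, 3 arrays each). Values are linear probe set intensities; 35.3 was the top reading of any control probe set that had no target, here called the highest control, and levels at or below this cannot be told from background. The T-cell marker Cd3e was present on all arrays, while Cd4 and Cd8a averaged 92.7 and 218 in the deleted leukaemias, 271 and 2729 in the wild-type leukaemias, and at least 1502 and 6184 in both thymocyte groups. Signal from the poly-A control transcripts was present on 5 arrays (deleted leukaemia 1, wild-type leukaemias 1 and 2, wild-type thymocytes 1 and 2) and absent on 7, and the Gapdh 3′ to 5′ ratio was 0.964 to 1.14 on the first and 1.12 to 3.68 on the second set. Xist, named here after its values were seen, averaged 36.5 ± 4.36 in the deleted and 4193 ± 543 in the wild-type leukaemias, against 39.7 in deleted and 35.4 in wild-type thymocytes. The Y-linked gene Eif2s3y, named likewise, averaged 519, 7.31, 262 and 395 in the same 4 groups. Sex therefore cannot be told apart from genotype between the leukaemias, from cell type between wild-type leukaemias and wild-type thymocytes, or from the difference of the genotype effects. Fewer cells of a type and less RNA per cell cannot be told apart in such bulk samples.

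**Figure D1:**
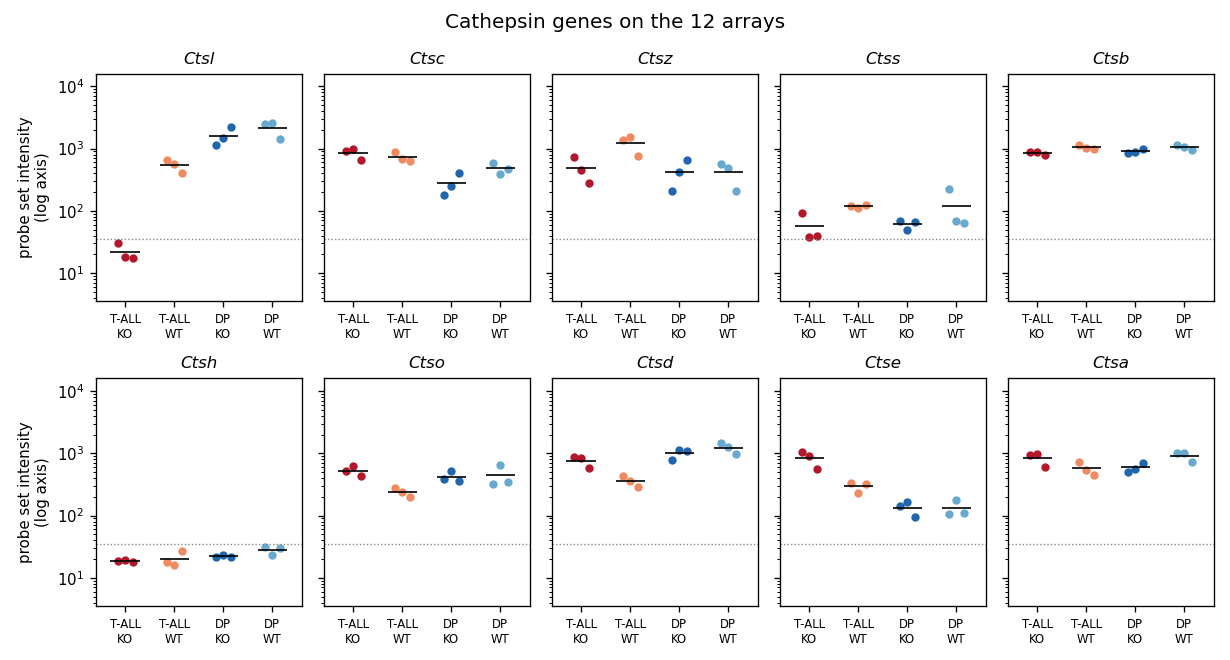
Probe set intensity (log axis) of the 10 cathepsin genes on each array. Columns are Mbd2-deleted (KO) and wild-type (WT) T-ALL, then KO and WT double positive (DP) thymocytes; points are replicates 1 to 3 from left to right, black bars are means, and the dotted line at 35.3 is the highest control without a target. Ctsl lies under the dotted line in all 3 KO leukaemias and at 403 or more in the other groups, and the representative probe set of Ctsh lies under it on all 12 arrays.

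Between the leukaemia genotypes, 3 of the 10 genes were higher in Mbd2-deleted cells (Ctsd, Ctse and Ctso) and 1 was lower (Ctsl), at a Benjamini-Hochberg adjusted p under 0.05 from limma over 15420 genes. Over all genes 9.19% were called higher and 6.98% lower; with each array centred on its 75th percentile the share of calls that were higher was 45.0% in place of 56.8%. The median log2 difference of the 10 genes was 0.06, beside -0.06 over all genes. With the replicate number as a block, 7 passed in the leukaemias, 4 higher and 3 lower, the added genes being Ctsa, Ctss and Ctsz. Over all 15420 genes the calls also rose with that block, from 2493 to 3871 (1935 higher and 1936 lower). That block overlaps the poly-A sets, since leukaemia array 1 had poly-A signal and array 3 had none in both genotypes. Without wild-type leukaemia 2 only Ctsl and Ctso passed, and the calls over all genes fell to 1412. Between the thymocyte genotypes none of the 10 passed with limma; 2 of the 10 (Ctsa and Ctsc) had an unadjusted p under 0.05, and no alternative setting called any of the 10. There, 0.0195% of all genes were called higher and 0.0130% lower, and the medians were -0.25 for the cathepsins and -0.02 for all genes.

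Ctsl, a cysteine endopeptidase, had the widest range. It read 30.1, 18.0 and 17.2 in Mbd2-deleted leukaemias, against 651, 572 and 403 in wild-type leukaemias. In thymocytes it read 1157, 1468 and 2218 in deleted mice and 2477, 2541 and 1409 in wild-type mice. The 3 deleted leukaemias were all below the highest control, no other array came near them, and the thymocyte genotypes overlapped. Ctsl was therefore at least 15.1-fold lower in deleted than in wild-type leukaemias (log2 -3.88, SE 0.21, adjusted p = 6.44e-05, here as throughout a difference of log2(value + 16), which understates changes of dim genes) and at least 44.1-fold lower in deleted leukaemias than in deleted thymocytes (log2 -5.40, SE 0.25, adjusted p = 1.24e-05). Wild-type leukaemias were also below wild-type thymocytes (log2 -1.93, SE 0.27, adjusted p = 0.00161), with no overlap. The order of the means was deleted leukaemia, wild-type leukaemia, and then both thymocyte groups, which did not differ beyond their spread (log2 -0.41, SE 0.30, adjusted p = 0.982). Within the arrays with poly-A signal the difference between leukaemia genotypes was -3.76 (1 array against 2), and within those without it -3.64 (2 against 1).

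Ctso, a cysteine cathepsin with a wide tissue distribution, read 522, 619 and 433 in deleted leukaemias, against 275, 241 and 201 in wild-type leukaemias, with no overlap. The difference was log2 1.08, SE 0.17, adjusted p = 0.00581, and within the sets with and without poly-A signal it was 0.98 and 1.30. Thymocytes read 391, 514 and 362 in deleted mice and 321, 660.5 and 343 in wild-type mice, which overlapped. Wild-type leukaemias lay below all 3 wild-type thymocyte arrays (log2 -0.78, SE 0.27, adjusted p = 0.0683); this passed with the replicate number as a block (adjusted p = 0.0234).

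Ctsz, a carboxypeptidase also called cathepsin X, differed in the opposite direction. It read 727, 459 and 283 in deleted leukaemias, against 1360.0, 1551 and 761 in wild-type leukaemias, without overlap. The difference of log2 -1.33, SE 0.39, adjusted p = 0.0623 missed the threshold. It passed under 11 of 18 alternatives, among them the replicate number as a block (adjusted p = 0.00287) and the poly-A set as a block (adjusted p = 0.0162). Its thymocyte values were 211, 422 and 646 in deleted mice and 561, 492 and 206 in wild-type mice. Wild-type leukaemias were above wild-type thymocytes without overlap (log2 1.56, SE 0.41, adjusted p = 0.0237), a call lost without wild-type leukaemia 1 or 2 (adjusted p = 0.0861 and 0.0931), whereas deleted leukaemias and deleted thymocytes overlapped (log2 0.23, SE 0.45, adjusted p = 0.783). The arrays with poly-A signal were the high ones in each of the 3 groups that hold both kinds of array. Within the sets with and without that signal the leukaemia genotypes differed by -0.98 and -1.04.

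Ctss, which completes invariant chain cleavage in antigen-presenting cells, read 93.2, 38.6 and 39.2 in deleted leukaemias, against 120.3, 113 and 123 in wild-type leukaemias. All deleted arrays were below all wild-type arrays, at log2 -0.96, SE 0.27, adjusted p = 0.0549, and 8 of 18 alternatives called it, the replicate block among them (adjusted p = 0.0199). Within the arrays with poly-A signal the difference was -0.28, and within those without it -1.34. Deleted thymocytes read 67.6, 49.2 and 66.2 and wild-type thymocytes 220.2, 68.9 and 64.4. Wild-type thymocyte array 1 stood apart at 220.2, and without it wild-type leukaemias were above wild-type thymocytes (log2 0.70, adjusted p = 0.00666), against log2 0.20, SE 0.39, adjusted p = 0.766 with all arrays.

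Myeloid and MHC class II genes were high on the array where Ctss was high. On wild-type thymocyte array 1, Lyz1 read 321, Lyz2 172, Cd74 297 and H2-Aa 424, each the highest of the 12 arrays (genes named after their values were seen), and a second Ctsh probe set read 50.1 against 13.6 to 21.7 elsewhere. In the leukaemias 2 of 13 tested monocyte and macrophage markers were lower in deleted cells and none higher, where 6.98% of all genes were called lower and 9.19% higher. The 2 were Lyz1 (log2 -1.09, SE 0.25, adjusted p = 0.027) and Lyz2 (log2 -0.59, SE 0.13, adjusted p = 0.0201). The defining markers Csf1r (54.5 to 86.0 on the 12 arrays) and Adgre1 (23.7 to 33.7, below the highest control) did not pass. The summed intensity of the 15 markers with a probe set was 382 to 468 in deleted leukaemias, 489.9 to 528 in wild-type leukaemias, 401 to 516 in deleted thymocytes and 480.4 to 1017 in wild-type thymocytes. The summed intensity of the 9 neutrophil markers with a probe set was 283 to 932 in deleted leukaemias, 1159 to 2051 in wild-type leukaemias, 231 to 530.1 in deleted thymocytes and 212 to 475 in wild-type thymocytes, highest in the group where Ctsz was also highest. The part of such cells in the Ctss and Ctsz values was not tested.

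**Figure D2:**
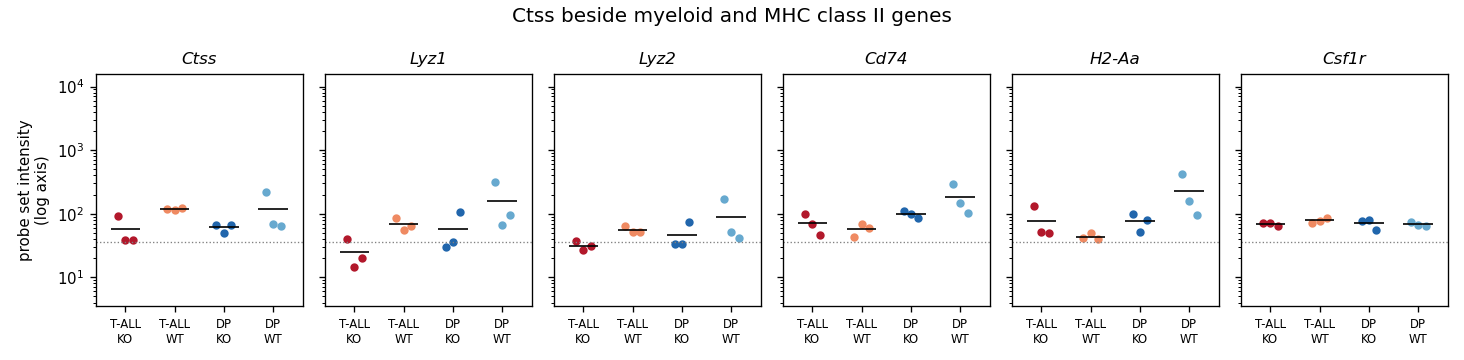
Probe set intensity (log axis) of Ctss beside the macrophage genes Lyz1, Lyz2 and Csf1r and the MHC class II genes Cd74 and H2-Aa, by group as before, with means as bars and 35.3 as the dotted line. Wild-type (WT) DP thymocyte array 1, the first point of its group, is the highest of the 12 arrays for Ctss (220.2), Lyz1, Lyz2, Cd74 and H2-Aa, and not for Csf1r.

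Ctsc, the dipeptidyl peptidase that activates granule serine proteases, was called between leukaemia and thymocytes and not between the genotypes. Its genotype difference in thymocytes (log2 -0.82) was nevertheless larger in size than its difference between wild-type leukaemias and wild-type thymocytes (log2 0.59). It read 926, 966 and 647 in deleted leukaemias and 893, 688 and 635 in wild-type leukaemias, which overlapped (log2 0.19, SE 0.20, adjusted p = 0.612). Thymocytes were lower, at 180.2, 251 and 409 in deleted mice and 592, 395 and 472 in wild-type mice, and those groups also overlapped (log2 difference -0.82, SE 0.28, adjusted p = 0.982). Deleted leukaemias were 3.02-fold above deleted thymocytes (log2 1.60, SE 0.29, adjusted p = 0.00563), and wild-type leukaemias 1.51-fold above wild-type thymocytes (log2 0.59, SE 0.19, adjusted p = 0.0464), the second a call near the threshold that 8 of the 18 alternatives did not keep, such as all 12 arrays in 1 fit (adjusted p = 0.114).

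Ctsb, which works as both an endopeptidase and a dipeptidyl carboxypeptidase, stayed between 794 and 1154 on the 12 arrays, the narrowest range of the 10 genes as a ratio of highest to lowest. It averaged 855 ± 53.7 in deleted and 1055 ± 79.2 in wild-type leukaemias (log2 -0.30, SE 0.10, adjusted p = 0.11), and 917 ± 73.3 in deleted and 1064 ± 95.5 in wild-type thymocytes. None of the comparisons passed for it. Ctsh, an aminopeptidase, read 16.1 to 31.8 over the 12 arrays by its representative probe set, below the highest control on every one, so no fold is given. Its second probe set was above that level on wild-type thymocyte array 1 alone, at 50.1.

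The aspartic proteases Ctsd and Ctse were both higher in the Mbd2-deleted leukaemias by the probe set that represents each gene. Ctsd, the main aspartic protease of lysosomes, read 874, 831 and 591 in deleted leukaemias, against 437, 353 and 292 in wild-type leukaemias, with no overlap and a 2.07-fold difference (log2 1.05, SE 0.20, adjusted p = 0.0137). It read 778, 1126 and 1084 in deleted and 1449, 1244 and 968 in wild-type thymocytes. Wild-type leukaemias were below wild-type thymocytes (log2 -1.71, SE 0.19, adjusted p = 0.000638), while deleted leukaemias and deleted thymocytes overlapped (log2 -0.38, SE 0.20, adjusted p = 0.227). The lowest group for Ctsd was thus the wild-type leukaemias. Within the poly-A sets the genotype difference in leukaemia was 1.12 with signal and 1.22 without it; without wild-type leukaemia 2 the call was lost (adjusted p = 0.0634).

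Ctse, an endosomal aspartic protease of immune and gastric cells, read 1063, 907 and 558 in deleted leukaemias, against 337, 232 and 317 in wild-type leukaemias, a 2.70-fold difference with no overlap (log2 1.43, SE 0.26, adjusted p = 0.0107). Thymocytes read 143, 167 and 94.7 in deleted mice and 107, 175 and 111 in wild-type mice, below every leukaemia array. Both leukaemia groups were higher than thymocytes of their genotype, deleted by 5.62-fold (log2 2.49, SE 0.28, adjusted p = 0.000576) and wild-type by 2.14-fold (log2 1.10, SE 0.21, adjusted p = 0.00682; adjusted p = 0.061 with the mean of both Ctse probe sets). The second Ctse probe set ran the other way in leukaemia. It read 184, 71.3 and 106 in deleted leukaemias, against 379.6, 483 and 164 in wild-type leukaemias, which overlapped (log2 -1.35, SE 0.45, adjusted p = 0.107). With the mean of both probe sets the Ctse difference between leukaemia genotypes was 0.04 (adjusted p = 0.936). Without wild-type leukaemia 2 the call was lost (adjusted p = 0.0519). The direction for Ctse holds for 1 of its 2 probe sets only.

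Ctsa, the serine carboxypeptidase that also protects lysosomal sialidase and beta-galactosidase, read 935, 960.0 and 612 in deleted leukaemias and 721, 549.6 and 457 in wild-type leukaemias, which overlapped (log2 0.52, SE 0.23, adjusted p = 0.191; adjusted p = 0.0262 with the replicate block). In thymocytes it read 507, 561 and 709 in deleted mice and 1009.7, 1027 and 718 in wild-type mice, without overlap and not passing (log2 -0.61, SE 0.18, adjusted p = 0.891). Wild-type leukaemias were below wild-type thymocytes, with overlapping arrays and a call close to the threshold (log2 -0.66, SE 0.21, adjusted p = 0.0442), which 7 of the 18 alternatives did not keep.

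Over the cell types, 2 of the 10 genes were higher (Ctsc and Ctse) and 1 lower (Ctsl) in Mbd2-deleted leukaemias than in deleted thymocytes, where 18.5% of all genes were called higher and 11.0% lower. In wild-type leukaemias against wild-type thymocytes, 3 were higher (Ctsc, Ctse and Ctsz) and 3 lower (Ctsa, Ctsd and Ctsl), with 19.7% and 14.2% of all genes called. These comparisons share arrays with those between genotypes, and the share of members called was not tested against the rest of the array.

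The genotype effect itself differed between leukaemia and thymocytes for 4 of the 10 genes in a fit of all 12 arrays (effect in T-ALL minus effect in DP thymocytes). It was lower for Ctsl (log2 -3.47, SE 0.40, adjusted p = 0.000151) and higher for Ctsd (log2 1.34, SE 0.30, adjusted p = 0.0121), Ctse (log2 1.39, SE 0.38, adjusted p = 0.0339) and Ctsa (log2 1.14, SE 0.31, adjusted p = 0.0359). Over all genes 7.86% were called higher and 4.74% lower, a split that 75th percentile centring turned to 47.8% higher among the calls in place of 62.4%, with the median of all genes at -0.18 in place of -0.05; the same 4 cathepsins passed. For Ctsa and Ctse the call was lost without any of several single arrays, among them deleted leukaemia 1 (adjusted p = 0.0797 and 0.0746) and wild-type leukaemia 2 (0.0826 and 0.0911). Ctsl and Ctsd passed under all 23 alternatives. With the mean of its probe sets Ctse had a difference of 0.13 (adjusted p = 0.893). For Ctso the difference of effects was log2 1.08, SE 0.35, adjusted p = 0.0748 and for Ctsz log2 -1.33, SE 0.68, adjusted p = 0.277 (adjusted p = 0.0289 when blocked by poly-A set).

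**Figure D3:**
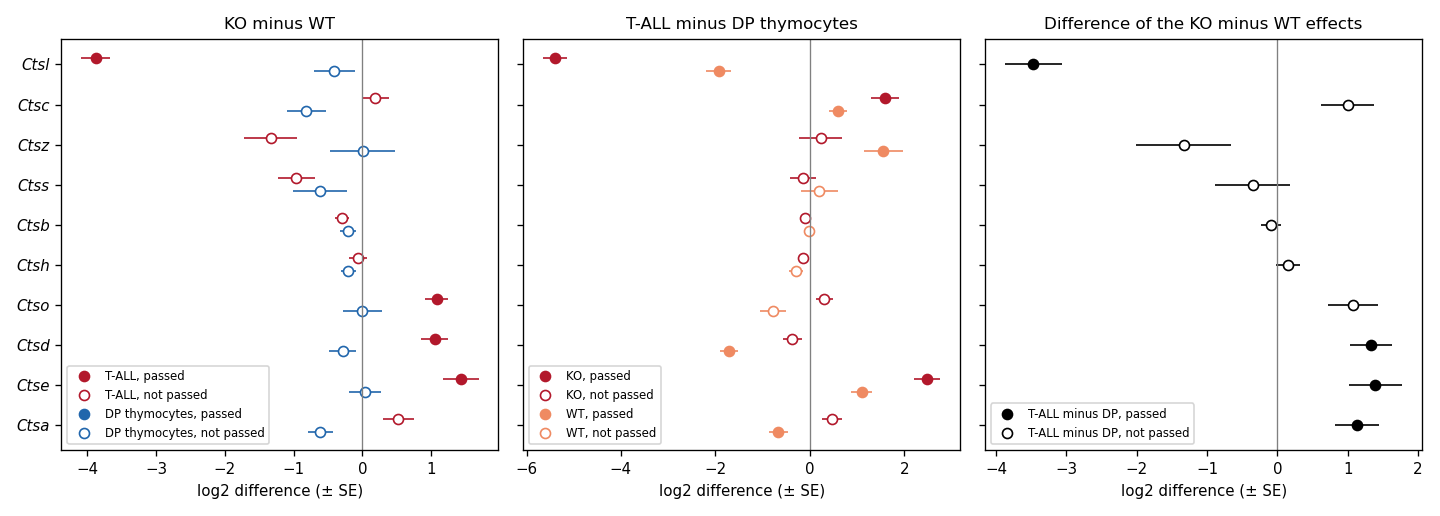
Log2 differences ± SE (limma, log2(value + 16)) of the 10 cathepsin genes. Left, Mbd2-deleted (KO) minus wild type (WT) in T-ALL and in DP thymocytes; middle, T-ALL minus DP thymocytes for each genotype; right, the difference of the KO minus WT effects. Filled points passed an adjusted p of 0.05: Ctsl lies at -3.88 in T-ALL and -0.41 in DP thymocytes, and no thymocyte point is filled.

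All 23 probe sets were fitted together with the other single-gene probe sets, 28372 in all. In leukaemia 3 of the 23 were higher and 3 lower in deleted cells, where 7.64% and 5.26% of all tested probe sets were called. Those called lower were both Ctsl probe sets, the second at log2 -0.72, SE 0.13, adjusted p = 0.0133 and below the highest control on all deleted and 2 of 3 wild-type leukaemia arrays, and a second Ctsz probe set. That probe set read 357, 281 and 276 in deleted leukaemias, against 685, 635 and 598 in wild-type leukaemias, with less spread than the representative probe set and a difference of log2 -1.04, SE 0.13, adjusted p = 0.00322. The third Ctsz probe set lay on the same side (log2 -1.27, SE 0.42, adjusted p = 0.109). The second Ctso probe set was on the side of the first without passing (log2 0.39, SE 0.14, adjusted p = 0.127), and below the highest control in all wild-type leukaemias.

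Against thymocytes, 2 of the 23 probe sets were higher and 3 lower in deleted leukaemias (15.6% and 11.6% of all tested probe sets), and 3 higher and 4 lower in wild-type leukaemias (16.2% and 13.6%). One further Ctsb probe set, unlike the steady representative of that gene, read 29.3, 30.8 and 27.3 in deleted leukaemias, below the highest control, against 54.9, 51.2 and 65.0 in deleted thymocytes, at least 1.61-fold lower (log2 -0.69, SE 0.11, adjusted p = 0.00386). The second Ctso probe set read 29.7, 27.3 and 26.8 in wild-type leukaemias, below the highest control, against 68.2, 58.2 and 68.6 in wild-type thymocytes, at least 1.84-fold lower (log2 -0.88, SE 0.10, adjusted p = 0.00108). The probe sets of Ctsc other than the representative read 19.8 or less on every array. For the difference of the genotype effects, 3 of the 23 probe sets were higher and 3 lower (6.26% and 3.38% of all tested probe sets), the lower ones being those of Ctsl and the second Ctsz probe set (log2 -1.20, SE 0.20, adjusted p = 0.00315).

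**Figure D4:**
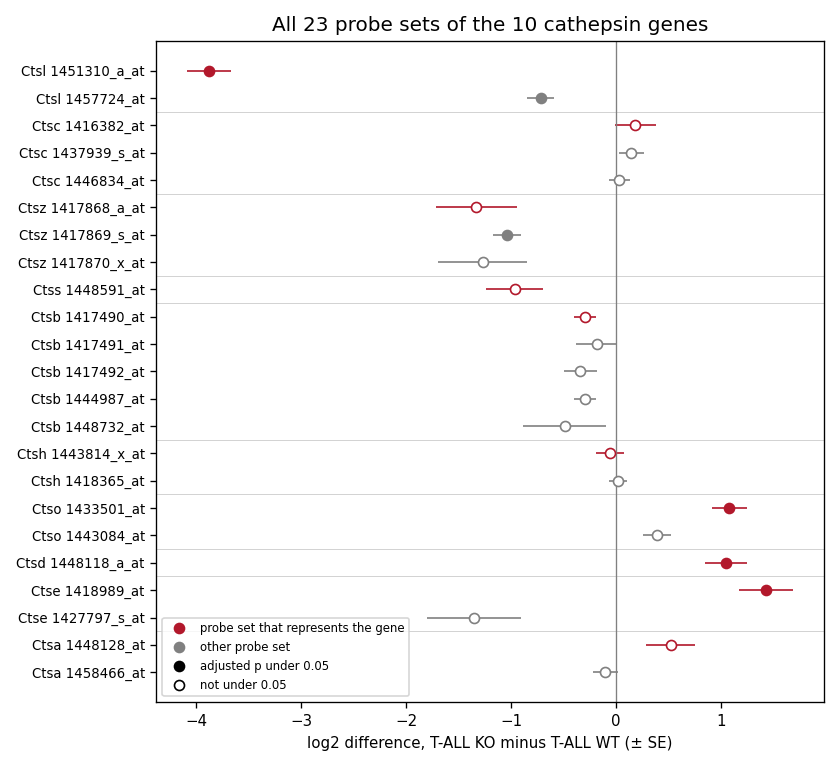
Log2 difference ± SE between Mbd2-deleted (KO) and wild-type (WT) T-ALL for each of the 23 probe sets of the 10 genes. Red points represent the gene in the other analyses and grey points are its other probe sets; filled points passed an adjusted p of 0.05. The 2 Ctse probe sets lie on opposite sides of 0, at 1.43 and -1.35, and all 3 Ctsz and both Ctsl probe sets lie below 0.

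Of 12 further cathepsin genes with a probe set 6 were tested, and 1 was higher and none lower in deleted leukaemias. Over all genes 9.19% were called higher and 6.98% lower, and a single call in a list of this size is near those shares. Ctsw, a cysteine cathepsin of killer lymphocytes, read 627, 536 and 505 in deleted leukaemias, against 96.2, 83.8 and 95.4 in wild-type leukaemias, 159, 146 and 118 in deleted thymocytes and 209, 175 and 161 in wild-type thymocytes. Deleted leukaemias were above every other array (log2 2.40, SE 0.12, adjusted p = 3.78e-05), and the difference of the genotype effects was log2 2.74, SE 0.19, adjusted p = 2.15e-06. Ctsg, a granule serine protease of myeloid cells, read 29.1, 24.0 and 201 in deleted leukaemias, with the third array alone above background, against 27.8, 21.7 and 23.1 in wild-type leukaemias. Over the 12 arrays Ctsk and Ctsf stayed between 30.0 and 57.2, and Ctsj, Ctsm, Ctsq, Ctsr, Cts3, Cts6, Cts7 and Cts8 were at 27.5 or less on every array.

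Several genes listed as inhibitors of cathepsins differed widely between the leukaemia genotypes. Of 19 listed genes 15 had a probe set and 9 were tested, and the other 6 with a probe set were too dim to be tested. Of the 9, 4 were higher and none lower in deleted leukaemias, where 9.19% of all genes were called higher and 6.98% lower. Ctla2a and Ctla2b passed the filter on low values only through the deleted leukaemias, so this count describes the tested genes and supports nothing about the list. Cst7 (cystatin F, known to restrain cathepsin C in killer cells) read 932, 788 and 974 in deleted leukaemias, against 126, 96.3 and 66.7 in wild-type leukaemias (log2 3.05, SE 0.21, adjusted p = 0.000151), and below 28 on all thymocyte arrays. Ctla2a, whose product resembles the propeptide of papain-type cathepsins, read 619.9, 452 and 807 in deleted leukaemias, against 9.64, 6.76 and 10.9 in wild-type leukaemias. That is at least 17.3-fold higher (log2 4.64, SE 0.21, adjusted p = 2.58e-05). The paralog Ctla2b was at least 19.5-fold higher (log2 4.85, SE 0.16, adjusted p = 8.88e-06), and their close sequence means that the probe sets may share signal. The intracellular serpin Serpinb6b read 1004, 1061 and 1147 in deleted leukaemias, against 19.9, 17.8 and 30.8 in wild-type leukaemias, at least 30.3-fold higher (log2 4.82, SE 0.15, adjusted p = 6.72e-06). Whether its product inhibits a cathepsin was not tested. None of the 9 passed between thymocyte genotypes (limma).

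Proteases that cathepsin C activates were called in the same leukaemias although Ctsc was not: 3 of 11 tested were higher and none lower in deleted leukaemias, 1 of the 3 (Mcpt8) having passed the filter only through those arrays. Gzmb, a granzyme that triggers cell death, read 2067, 2275 and 2392 in deleted leukaemias, against 16.7, 21.6 and 29.7 in wild-type leukaemias, at least 63.6-fold higher (log2 5.88, SE 0.14, adjusted p = 3.28e-06). Gzma read 7389.6, 4873 and 3597 in deleted leukaemias, against 1236, 1278 and 1008 in wild-type leukaemias (log2 2.10, SE 0.26, adjusted p = 0.00206). The basophil protease Mcpt8 read 82.1, 21.3 and 58.0 in deleted leukaemias, where 1 array was below the highest control, against 11.3, 10.6 and 11.0 in wild-type leukaemias, at least 1.32-fold higher (log2 1.26, SE 0.33, adjusted p = 0.0431). Of 10 markers of mast cells and basophils 7 were tested, and 4 were higher and none lower. Mcpt8 is on this list too, so the counts of these 2 lists are not independent. Over all genes 9.19% were called higher and 6.98% lower. The summed intensity of the 10 markers was 8175 to 9662 in deleted leukaemias, against 175 to 206 in wild-type leukaemias. Most of that sum was Cpa3, a mast cell carboxypeptidase that averaged 7622, and Kit, the stem cell factor receptor, at 801, while 3 of the 7 did not pass; the part of such cells was not tested.

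**Figure D5:**
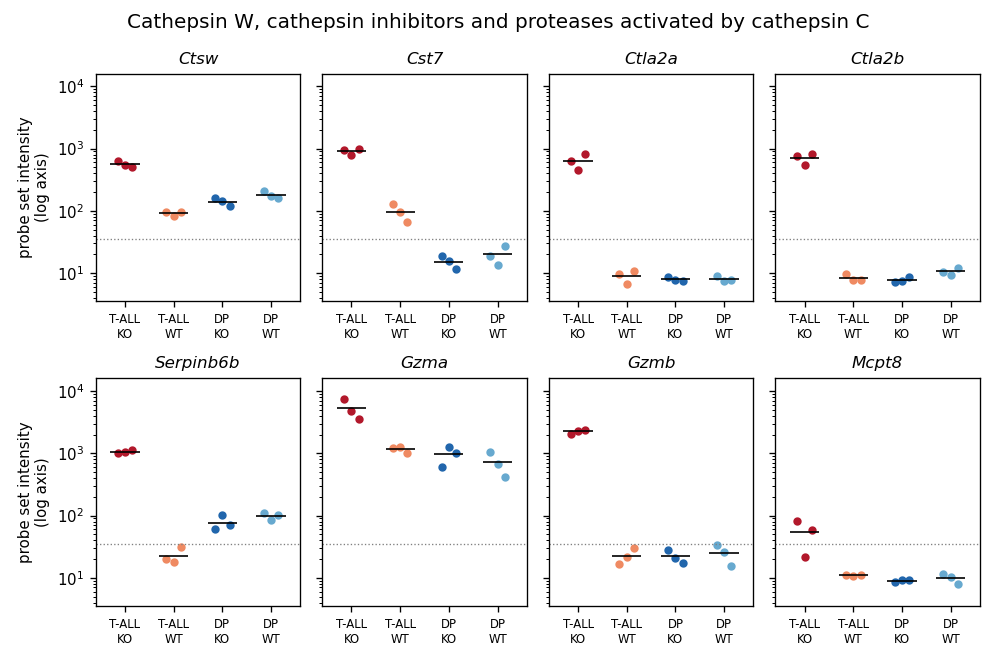
Probe set intensity (log axis) of cathepsin W, the cathepsin inhibitors Cst7, Ctla2a and Ctla2b, the serpin Serpinb6b, and 3 proteases activated by cathepsin C (Gzma, Gzmb, Mcpt8). Groups are as before, with means as bars and 35.3 as the dotted line. In every panel but that of Mcpt8 all 3 KO T-ALL arrays lie above the other 9 arrays by a clear margin; Mcpt8 is below the dotted line on 1 KO array and on the other 9 arrays.

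In the rest of the lysosomal pathway, genes passed in both directions between leukaemia genotypes, to be read against the 9.19% higher and 6.98% lower over all genes. The called shares of the sorting and processing list and of the other hydrolases were above those of all genes in both directions. The called share of the membrane and proton pump list was below that of all genes in both directions. That of the regulator list was below it for higher calls and above it for lower calls. No list was tested against the rest of the array. Of 16 tested genes that tag, sort and process lysosomal enzymes, 3 were higher and 2 lower in deleted cells (median -0.12). Gnptab, a subunit of the enzyme that starts the mannose-6-phosphate tag, read 1302, 2265 and 946 in deleted leukaemias, against 251, 442 and 286 in wild-type leukaemias (log2 2.10, SE 0.34, adjusted p = 0.00719). The sorting receptor Scarb2 was also higher (log2 0.55, SE 0.14, adjusted p = 0.0355), and the coat adaptors Ap1m1 (log2 -0.59, SE 0.15, adjusted p = 0.0423) and Gga2 (log2 -0.57, SE 0.15, adjusted p = 0.0463) were lower.

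Of 31 other lysosomal hydrolases, 4 were higher and 5 lower (median -0.12). Arylsulfatases Arsb (log2 1.94, SE 0.20, adjusted p = 0.000946) and Arsa (log2 0.80, SE 0.16, adjusted p = 0.0149) were higher, and alpha-galactosidase Gla (log2 -1.29, SE 0.12, adjusted p = 0.000553) and hexosaminidase Hexa (log2 -1.14, SE 0.17, adjusted p = 0.00531) were lower. Of 26 membrane and proton pump genes, the cholesterol exporter Npc1 (log2 1.36, SE 0.16, adjusted p = 0.00188) and the amino acid sensor Slc38a9 (log2 0.82, SE 0.16, adjusted p = 0.0153) were higher and the chloride transporter subunit Ostm1 (log2 -1.07, SE 0.17, adjusted p = 0.00613) was lower (median 0.02).

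Among 13 regulators of lysosomal genes none was higher and 2 were lower (median 0.17). Tfeb, a transcription factor that drives many lysosomal genes, read 61.8, 71.6 and 64.4 in deleted leukaemias, against 116, 103 and 106 in wild-type leukaemias (log2 -0.60, SE 0.10, adjusted p = 0.00766), and the GTPase Rragd, which acts on nutrient signalling to Tfeb, was at log2 -1.19, SE 0.18, adjusted p = 0.0047. Of 9 MHC class II pathway genes, the lysosomal thiol reductase Ifi30 alone passed, lower in deleted leukaemias (log2 -1.19, SE 0.25, adjusted p = 0.0208; list median 0.25). In thymocytes no gene of any of these lists passed between genotypes with limma.

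Other cell markers and T-cell markers were read beside these results. In deleted against wild-type leukaemias, 5 of 12 tested T-cell markers were lower and none higher, led by Ptcra (log2 -5.08, SE 0.15, adjusted p = 6.72e-06), Cd8b1 (log2 -5.57, SE 0.34, adjusted p = 9.88e-05), Cd4 (log2 -1.39, SE 0.10, adjusted p = 0.000199) and Cd8a (log2 -3.70, SE 0.40, adjusted p = 0.00113). Ptcra encodes the pre-T-cell-receptor alpha chain, and the other 3 the co-receptors that define the double positive stage. Neutrophil markers were lower for 2 of 9 (list median -0.91) and erythroid markers for 3 of 7, with none higher. B-cell markers were higher for 1 and lower for 1 of 9. In addition 1 of 8 dendritic cell markers and 1 of 10 thymic epithelial markers were higher. Over all genes 9.19% were called higher and 6.98% lower, and a single call in lists of this size is near those shares. The defining markers Foxn1 and Psmb11 of thymic epithelium, Cd79a of B cells and Itgax of dendritic cells stayed at or below the highest control on every array, apart from Itgax at 43.0 on wild-type thymocyte array 1. Summed over the 9 B-cell markers with a probe set, intensity was 938 to 1282 in deleted and 2117 to 2785 in wild-type leukaemias. It was 6613 to 7025 in deleted and 6312 to 7823 in wild-type thymocytes. The 10 thymic epithelial markers summed to 441 to 606 in deleted leukaemias, 274 to 334 in wild-type leukaemias and 314 to 359 in thymocytes. The part of such cells was not tested.

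The genes whose log2 values followed each cathepsin most closely over the 12 arrays are given as a description, since the points share groups and arrays. Ctsl ran with Nsg2 (Pearson r 0.995 over 12 arrays), Cstf2t (0.992) and Cd8b1 (0.99), Ctsd with Zxdb, Tmsb4x and Pcnx (0.98 each), and Ctse with Tceanc, Tm7sf3 and Crbn (0.98 each). Ctsz ran with Rcn2, Chchd3 and Sdhd (0.97 to 0.98), Ctso with Coq8a, Mocs1 and Pfkfb4 (0.93 to 0.96), Ctsb with Ralb, Capn10 and Rundc1 (0.95 to 0.97), Ctsc with Pafah1b2, Dcaf7 and Ermp1 (0.94 to 0.96), and Ctsa with Emb, Snx14 and Clk2 (0.91 to 0.93). Ctss was closest to the phagocyte oxidase gene Cybb (0.93), whose group means were all below the highest control, to Actn2 (0.88) and to the Fc receptor chain Fcer1g (0.85), both near that level, and Ctsh, at background, reached 0.86 at most.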

How the data were processed

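RNA of 12 sorted mouse cell samples was measured on Affymetrix mouse arrays, 3 in each of 4 groups, from 7 µg of total RNA by the labels' protocols. The deposited table holds linear intensity values for 45101 probe sets, made by the authors; how they were summarized and normalized is not given in the sources used here. The median of each array lay within log2 5.71 to 5.79, and arrays of a group correlated at 0.983 to 0.994. The number of arrays limits the precision. Of 34945 probe sets with 1 gene, the one with the highest mean stood for each of 18193 genes.

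log2(value + 16) was tested with limma 3.58.1 (R 4.3.3) over the 15420 genes whose intensity on at least 3 arrays exceeded that array's 25th percentile, with Benjamini-Hochberg adjustment and a threshold of 0.05. Comparisons of 2 groups used their arrays only, and the difference of the genotype effects used all 12. All single-gene probe sets were fitted likewise. The limma fit was tested on simulated arrays with known changes, for the comparisons between genotypes only. The level for background is the highest of 27 poly-A control probe sets on the 7 arrays without poly-A signal. A gene dimmer than it on all arrays of a group has a bound, the mean log2 value of the brighter group against that level. An exact permutation test of 3 against 3 arrays cannot go below 0.1 and was not used.

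The genes and lists were chosen with earlier results of these data known. All 10 cathepsins, the other cathepsins, Mbd2, defining markers, up to 4 passing genes a list with the smallest p, and the 3 genes most like each cathepsin are named. Arrays with the same replicate number deviated alike between leukaemia genotypes (correlations of deviations 0.40, 0.24 and 0.55). The same held for wild-type leukaemias and wild-type thymocytes (0.45, 0.44 and 0.58), and not for the other groups. Replicate number overlaps the poly-A set in these groups, so whether the samples were paired cannot be told. Alternatives were other normalizations, constants, filters, probe set rules, variance models, blocks and arrays left out. Promoters came from RefSeq, GRCm38.p6.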

Additional observations from a re-analysis of the deposited data

Results flagged for a closer look

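For 4 cathepsins the Mbd2-deleted minus wild-type difference in T-ALL differed from that in DP thymocytes by the interaction test (limma, 12 arrays). The difference of the effects was -3.47 on the log2 scale for Ctsl, with effects of -3.88 in T-ALL and -0.41 in thymocytes. It was 1.34 for Ctsd, with 1.05 in T-ALL and -0.29 in thymocytes, and 1.14 for Ctsa, with 0.52 and -0.61 in the same order. For Ctse it was 1.39, with 1.43 in T-ALL and 0.04 in thymocytes, a value that rests on the brighter of its 2 probe sets. Neither effect of Ctsa passed by itself, nor did the thymocyte effect of Ctsd. Within the arrays without poly-A signal (3 deleted against 1 wild-type), the thymocyte effects were -0.28 for Ctsa, 0.02 for Ctsd, 0.14 for Ctsl and 0.22 for Ctse. Sex-linked transcripts differed with genotype in the leukaemias (Xist averaged 36.5 in deleted and 4193 in wild-type cells), and their part in these differences was not tested.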

How the results depend on the processing

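Over 945 recalculated cathepsin values (genes by comparison by alternative), 831 kept their direction and their side of the threshold, 39 calls were lost, 37 were gained, 38 changed sign without a call and none reversed a call. In the leukaemias, the replicate block raised the 4 genes called between genotypes to 7, and leaving out 1 array gave 2 to 6. The calls over all 15420 genes moved the same way, from 2493 to 3871 with the block and to 1412 without wild-type leukaemia 2. Quantile normalization, 75th percentile centring, a constant of 1, a filter at the array median, and trend with robust variances each gave 6, 3 higher and 3 lower, by adding Ctss and Ctsz. Without wild-type leukaemia 2 the count was 2, and the adjusted p of Ctsd and Ctse became 0.0634 and 0.0519. In thymocytes no alternative called any member. Between wild-type leukaemias and thymocytes the main count was 6, and leaving out 1 array gave 3 to 6, with 3 without wild-type leukaemia 2. Between deleted leukaemias and deleted thymocytes every alternative gave 3 or 4. For the difference of the genotype effects the count of 4 fell to 2 with no filter (Ctsl and Ctsd) and lay between 2 and 4 with 1 array left out. It was 2 without wild-type leukaemia 2 or 3, deleted leukaemia 1 or 2, wild-type thymocyte array 2 or deleted thymocyte array 1; the cause was not tested. The replicate block added Ctso to the wild-type comparison and to the difference of the effects, and lost no call. Values within the sets with and without poly-A signal, chosen after seeing the data, turned no call round; 51 moved by less than 1 SD between arrays and 9 by more.

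Array number and dim signal limit these results: with 3 arrays a group, Ctss and Ctsz stood close to the threshold, and Ctsh was above background on 1 array by 1 probe set. Deleted thymocytes have no array with poly-A signal, so that set and genotype cannot be told apart in full there.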
